A study of Mus musculus with 38 samples.

Results

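The genes described here carry glucose into the cell, break it down to pyruvate, turn pyruvate into lactate and export the lactate, together with the pyruvate dehydrogenase complex and the kinases that switch it off. They were chosen by a fixed list of 38 symbols plus the pyruvate kinase M gene, which the table writes as Pkm2, and all 39 were found among the 21705 genes of the RNAseq table. By role they were 3 glucose transporters, 10 genes of upper glycolysis, 4 enzymes that set the level of fructose-2,6-bisphosphate, 9 genes of lower glycolysis, 5 genes of lactate formation and export and 8 genes of pyruvate dehydrogenase and its kinases. Of the 39 genes, 31 were above the floor of 3 reads in all 38 libraries.

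RNA was measured in mouse kidney tumours, in cell lines grown from such tumours and in normal kidney. MYC mice (genotype MYC+) carry a Tet-O-MYC transgene that doxycycline (Dox) switches on through rtTA, driven in renal tubule cells by the Ksp cadherin promoter. VM mice (Vhl-/-; MYC +) lose in addition Vhl through a tamoxifen-inducible Cre under the same promoter, and VIM mice (Vhl-/-; MYC +; Ink-/-/Arf-/-) further lack Cdkn2a in the germline. MYC, VM and VIM cells had 4 libraries maintained on Dox and 4 after Dox was withdrawn, 24 in all. By the methods of the paper, RNA was taken 24 h after plating with or without Dox. Tumours of mice on Dox gave 3 libraries each, from 3 VM and 3 VIM mice but only 2 MYC mice, since mouse 2983 gave 2 MYC libraries and mouse 2917 gave 1. The number 2983 also stands in the titles of all 8 MYC cell libraries. The titles of VM and VIM cells give no mouse number. In the paper the sequenced VM line carries the number 3055, which also stands in the title of the second VM tumour. The 5 normal kidneys were wild type and received vehicle, so they lacked the transgenes, Cre and Dox at once. Of these kidneys 2 carry B6 and 3 carry KT in their titles. In the study Cre was activated by oral tamoxifen ahead of Dox feed, so that this drug also goes with VM and VIM tumours. MYC mice went onto Dox feed as young adults, and the labels give no age at collection. Each cell line is 1 line, so that line and genotype cannot be told apart, and the labels name no separate cultures, so p-values between cell libraries measure only the spread between those libraries.

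Values are in units in which the upper quartile of a library equals 1000, and estimated depth ran from 8.22 to 36.6 M reads per library. Vhl was at 13.1 to 31 units in the means of VM cells and 12.7 to 17.1 in VIM cells, against 451 to 533 in MYC cells. In tumours it was 40.2 to 79.9 in VM, 219 to 312 in VIM and 468 to 559.7 in MYC, against 612 to 772 in normal kidney. The mouse Myc row went against the Dox label, being lower in the libraries labelled with Dox in each line (676 against 1831 units in MYC, 384 against 1364 in VM and 381 against 1479 in VIM cells), and the sources do not say whether this row holds reads of the transgene. Every change with Dox given below takes its sign from the label and would have the opposite sign if the labels were exchanged. Cells are therefore called below labelled with Dox or without Dox. Summed proximal tubule markers (10 genes) reached 314493 to 346068 units in normal kidney and 3183 to 18659 in the tumours, and renal epithelial markers (8 genes) 24467 to 36110 against 9839 to 24904. In such bulk samples fewer cells of a type and less RNA per cell cannot be told apart.

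As background, cells can pass pyruvate to the mitochondria, through pyruvate dehydrogenase, or reduce it to lactate and export it with a proton. Kidney proximal tubule rests on oxidation and makes glucose rather than consuming it. VHL marks the hypoxia-inducible factors HIF1A and EPAS1 for destruction, and HIF1A is known to activate genes for glucose uptake, glycolytic enzymes, lactate dehydrogenase A and pyruvate dehydrogenase kinase. MYC, with its partner MAX, binds E-box letters and is known to activate several of the same genes. HIF binds a short core within the hypoxia response element.

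The promoters of 4 genes of lactate formation, lactate export and entry into the mitochondria are shown, since the results on these steps refer to them: the lactate exporters Slc16a1 and Slc16a3, lactate dehydrogenase A, and the kinase Pdk1. Each is the 250 bases before the first listed RefSeq start on GRCm38.p6, all on the plus strand (chr3:104638414-104638663, chr11:120948817-120949066, chr7:46845554-46845803 and chr2:71872974-71873223). Capitals mark the E-box CACGTG and the HIF core letters ACGTG or GCGTG, on either strand, so that CACGT and CACGC are the same cores read from the other strand.
Slc16a1: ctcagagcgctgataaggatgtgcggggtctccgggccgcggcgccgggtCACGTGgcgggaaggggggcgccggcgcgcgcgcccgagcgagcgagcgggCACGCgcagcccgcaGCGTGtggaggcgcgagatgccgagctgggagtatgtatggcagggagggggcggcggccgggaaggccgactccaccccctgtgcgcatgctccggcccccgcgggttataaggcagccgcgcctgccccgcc
Slc16a3: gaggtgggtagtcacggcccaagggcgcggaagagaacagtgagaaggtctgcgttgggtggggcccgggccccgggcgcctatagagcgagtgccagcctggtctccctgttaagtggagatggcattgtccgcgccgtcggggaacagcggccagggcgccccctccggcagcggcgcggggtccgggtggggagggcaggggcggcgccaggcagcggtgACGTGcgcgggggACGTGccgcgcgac
Ldha: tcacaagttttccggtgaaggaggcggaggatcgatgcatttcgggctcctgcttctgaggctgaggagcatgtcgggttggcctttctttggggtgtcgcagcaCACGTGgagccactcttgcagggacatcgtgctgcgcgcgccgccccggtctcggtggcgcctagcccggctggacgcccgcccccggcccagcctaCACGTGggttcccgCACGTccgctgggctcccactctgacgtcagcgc
Pdk1: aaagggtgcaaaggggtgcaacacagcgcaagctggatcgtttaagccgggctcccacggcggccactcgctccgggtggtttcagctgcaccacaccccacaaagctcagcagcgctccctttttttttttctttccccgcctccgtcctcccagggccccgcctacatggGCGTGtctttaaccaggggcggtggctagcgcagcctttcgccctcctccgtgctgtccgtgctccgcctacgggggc
The Slc16a1 window held 1 E-box and 4 cores, that of Ldha 2 E-boxes and 5 cores, that of Slc16a3 2 cores and that of Pdk1 1 core, where each E-box also counts as 2 cores when read on both strands. Over all members, 36 of 39 had entries, with 56 promoters. An E-box stood in 6 of these 56, against 6.02% of 32851 promoters of the same length, and either core in 39, against 38.6%. A match to these letters is a description of the window and not a site of binding.

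**Figure D1:**
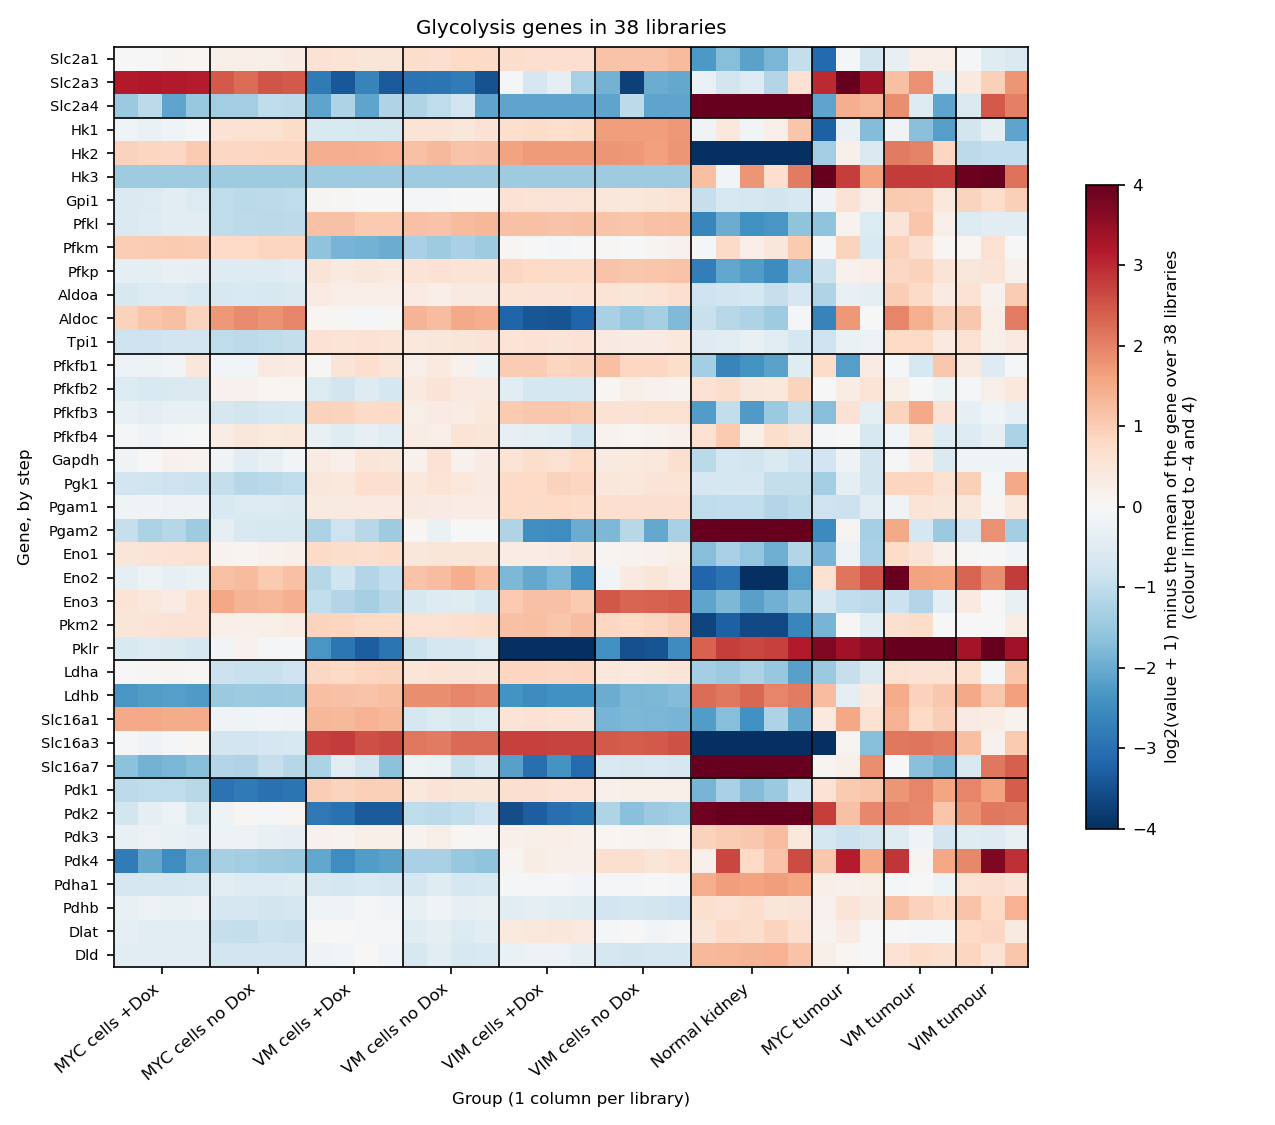
Heat map of 39 genes (rows, by step of the pathway) in 38 libraries (columns, by group), coloured by log2(value + 1) minus the mean of that gene over all libraries. Normal kidney stands out by low Hk2, Pkm2 and Slc16a3 and high Slc2a4, Pgam2, Slc16a7 and Pdk2, and the first MYC tumour column (mouse 2917) is lower than the other MYC columns for many genes.

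VM and VIM tumours had more RNA than normal kidney for most steps from glucose to lactate, with the highest rises for Slc16a3, Hk2, Eno2, Pkm2 and Pdk1, and less for Slc2a4, Hk1, Pgam2, Slc16a7, Pdk2, Pdk3 and Pdha1. In MYC tumours the highest rises were those of Hk2, Slc16a3 and Eno2 and the deepest falls those of Pgam2, Slc2a4 and Slc16a7, while Ldha, Eno1 and Pgk1 did not pass. The limma test ran over all genes on log2(value + 1), libraries of one mouse averaged first. Passing meant an absolute log2 change over 1 together with an adjusted p under 0.05. In VM tumours 22 of 39 members rose and 7 fell, that is 74.4% of the members against a background of 39.8% of all 16521 genes tested. In VIM tumours 21 rose and 8 fell (74.4% against 39.6% of all genes), and in MYC tumours 12 rose and 9 fell (53.8% against 37.1%). The falling share of all genes was 22.5%, 20.7% and 17.7% in VM, VIM and MYC tumours. The rising share was 56.4% of the members in VM tumours against 17.3% of all genes, 53.8% against 18.9% in VIM tumours and 30.8% against 19.4% in MYC tumours. The median log2 change of the members was 1.35, 1.37 and 0.17 in VM, VIM and MYC tumours, and of all genes tested -0.05, 0.01 and 0.12. These 3 comparisons share the 5 normal kidneys.

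**Figure D2:**
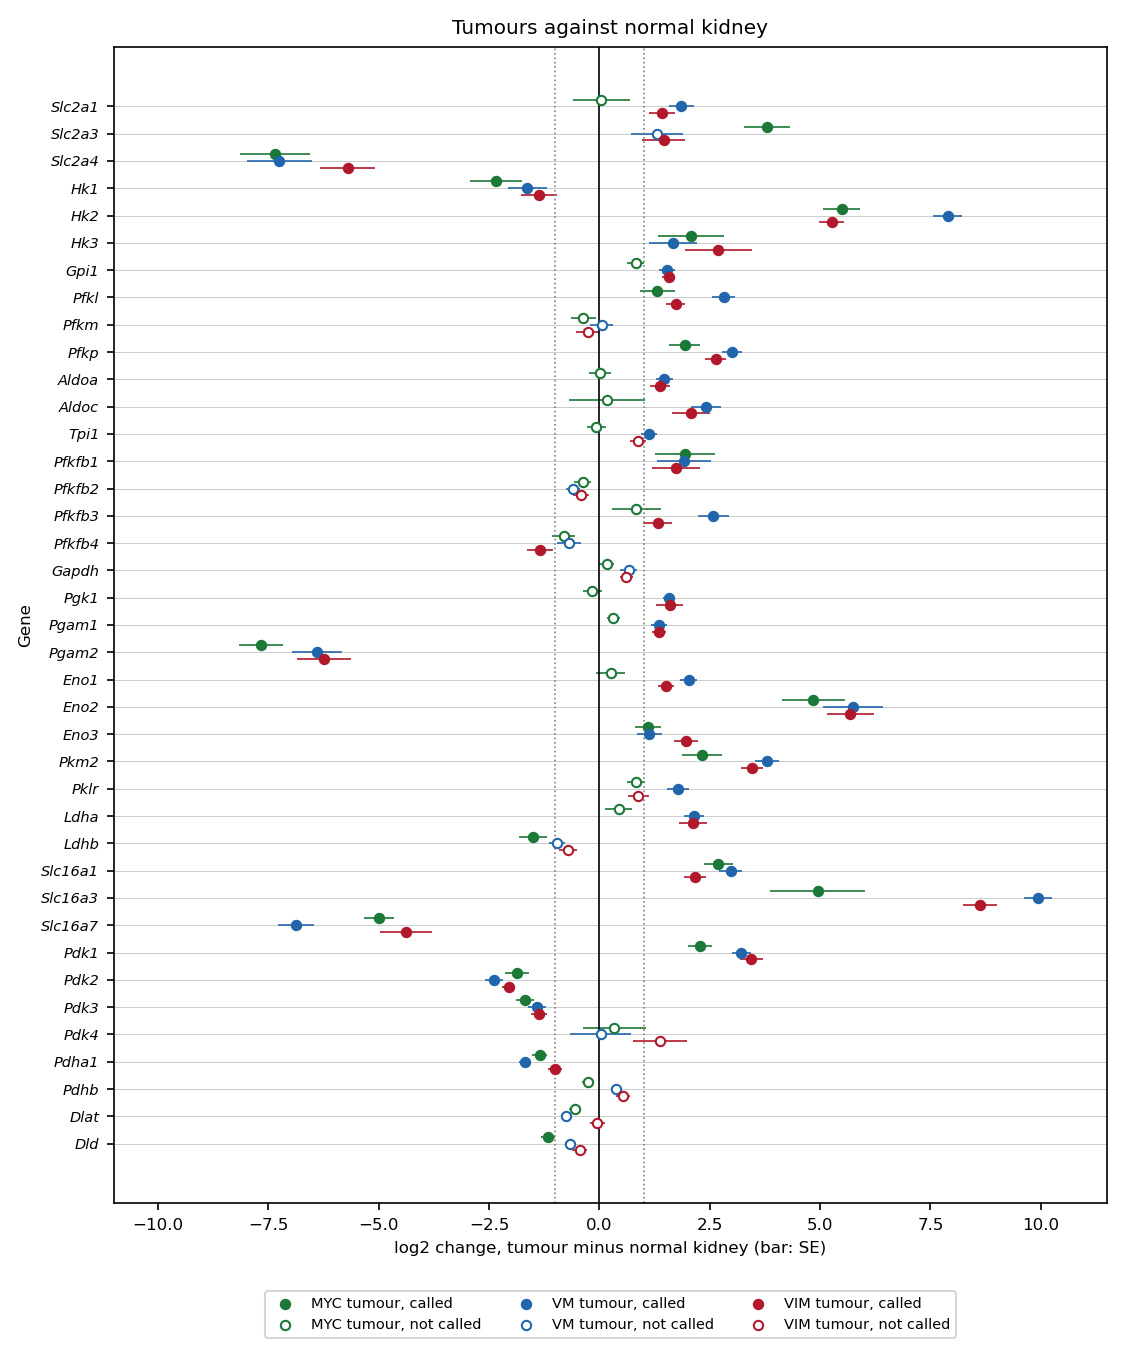
Log2 change of each gene (rows) in MYC, VM and VIM tumours against normal kidney, with SE as bars, filled points for genes that passed and open points for those that did not, and dotted lines at -1 and 1. Slc16a3, Hk2, Eno2 and Pkm2 lie far to the right in all 3 tumours, Slc2a4, Pgam2 and Slc16a7 far to the left, and the open MYC tumour points of Aldoa, Tpi1, Pgk1, Eno1 and Ldha lie within 0.5 of 0.

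Among the glucose transporters, Slc2a1 (GLUT1), the widespread basal carrier, stood at 2013, 2976 and 3039 units in the VM tumours, 2412, 1792 and 1683 in the VIM tumours and 512, 768, 564, 704 and 1285 in the normal kidneys. Every VM and VIM tumour was above every normal kidney, and the log2 changes were 1.86 (SE 0.29, adjusted p = 0.000389) and 1.42 (SE 0.29, adjusted p = 0.00227). The MYC tumours fell on both sides of normal kidney, with 288 units in mouse 2917 and 2353 and 1514 in the libraries of mouse 2983, and the change was 0.04 (SE 0.65, adjusted p = 0.963). Without mouse 2983 this change was -1.33, a turn in direction. Slc2a4 (GLUT4), the insulin-regulated carrier of muscle and fat, had 438, 599, 501, 433 and 898 units in normal kidney and 0 to 10.8, 0 to 14.6 and 1.88 to 22.6 in MYC, VM and VIM tumours, where 1, 2 and 1 of 3 libraries were at or under the floor. Its log2 changes were -7.36, -7.25 and -5.70. Summed adipocyte markers (6 genes) were 451 to 1149 units in normal kidney and 159 to 1109 in the tumours. In normal kidney Adipoq, Lep and Retn were at 0 in all 5 libraries and Plin1 was at or under the floor, so that 1 of the 6, Fabp4, was above the floor in every kidney. Slc2a3 (GLUT3), a high-affinity carrier, rose in MYC tumours by 3.79 (SE 0.52, adjusted p = 0.00055), with 221, 475 and 295 units against 11.4 to 41.7 in normal kidney, and in VIM tumours by 1.46 (SE 0.49), where the groups overlapped and the call was lost without any of 6 single libraries.

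In upper glycolysis Hk2 rose and Hk1 fell. Hk2, the inducible form that sits on mitochondria, was 10.4, 13.1, 12, 13 and 13.9 units in normal kidney and 388, 1182 and 694 in MYC, 4325, 4108 and 1821 in VM and 495, 524 and 525 in VIM tumours. No tumour came near normal kidney, and the log2 changes were 5.49 (SE 0.42, adjusted p = 3.77e-05), 7.89 (SE 0.33, adjusted p = 1.24e-07) and 5.26 (SE 0.28, adjusted p = 1.66e-06). Hk1, the constitutive form, fell from 1028 to 2516 units in normal kidney to 121 to 955, 250.3 to 1054 and 269.8 to 917 in MYC, VM and VIM tumours, with log2 changes of -2.34, -1.64 and -1.36. The Hk1 call was lost without mouse 2917 in MYC tumours (-1.13), without the third VM tumour (-1.20) and without the third VIM tumour (-0.84). Per kb of transcript, Hk2 held 0.43 to 0.86% of the 3 hexokinases in normal kidney. In MYC, VM and VIM tumours it held 57%, 82.9% and 40.1% on average over libraries, not over mice. Hk3, known from myeloid cells, was listed at 0 in all 24 cell line libraries and reached 7.06 to 44.8, 17.3 to 17.5 and 11 to 108 units in the tumours against 1.46 to 10.1 in normal kidney, where 3 of 5 libraries were at or under the floor. Its log2 changes were 2.08 (SE 0.74), 1.67 (SE 0.55) and 2.70 (SE 0.75), and summed leukocyte markers (7 genes) moved the same way, from 1277 to 2254 units in normal kidney to 2186 to 15237 in the tumours. The part of leukocytes in the Hk3 change was not tested. The Hk3 call was lost without mouse 2917 or any of 4 single normal kidneys in MYC tumours, without any of the 3 tumours or 1 normal kidney in VM, and without the second VIM tumour.

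All of the upper glycolysis genes other than Hk1 and Pfkm rose in VM tumours. The phosphofructokinases catalyse the committed step, and Pfkl was 5083, 7536 and 4176 units in VM tumours against 578, 882, 661, 694 and 1159 in normal kidney, a log2 change of 2.82, with 1.73 in VIM and 1.31 in MYC tumours. Pfkl in MYC tumours overlapped with normal kidney, and without mouse 2983 its change was 0.58 and did not pass. Pfkp, the platelet form, changed by 3.01 (SE 0.23, adjusted p = 4.56e-06) in VM, 2.64 (SE 0.23, adjusted p = 1.81e-05) in VIM and 1.93 (SE 0.35, adjusted p = 0.00206) in MYC tumours, and none of its tumour libraries overlapped normal kidney. Pfkm, the muscle form, did not pass in any tumour (945 units on average in normal kidney and 421 to 1194, 679 to 1226 and 637 to 992 in MYC, VM and VIM tumours). Gpi1 rose by 1.53 and 1.57, Aldoa by 1.47 and 1.37 and Aldoc by 2.41 and 2.08 in VM and VIM tumours. Triosephosphate isomerase Tpi1 rose in VM tumours by 1.13 (SE 0.18). VIM tumours, at 18325 to 23601 units of Tpi1 against 9618 to 12728 in normal kidney, did not overlap normal kidney either but did not pass.

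The 4 enzymes that make or break fructose-2,6-bisphosphate, the activator of phosphofructokinase, differed among themselves. Pfkfb3, the form with high kinase activity, was 1627, 2513 and 1322 units in VM, 697, 791 and 710.4 in VIM and 189, 445, 183, 316 and 443 in normal kidney, with changes of 2.58 (SE 0.35) and 1.32 (SE 0.33), of which the second was 0.88 and no longer passed against the 3 KT kidneys alone. Pfkfb1, the liver form, passed in all 3 tumours (1.94, 1.92 and 1.73 in MYC, VM and VIM) from levels of 4.38 to 22.8 units in normal kidney. The Pfkfb1 call was lost without mouse 2917 or any of 4 normal kidneys in MYC, without 1 tumour or either of 2 normal kidneys in VM, and without either of 2 tumours or any of 3 normal kidneys in VIM tumours. Pfkfb4 fell in VIM tumours, with a log2 change of -1.34, and Pfkfb2 passed in none, at 607 to 850.1 units in normal kidney and 464 to 671, 399.5 to 538 and 435 to 615 in MYC, VM and VIM tumours.

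In lower glycolysis Pgk1, Pgam1, Eno1 and Pkm2 rose in VM and VIM tumours, and Pgam2, the muscle form of phosphoglycerate mutase, fell in both. Pkm2, the pyruvate kinase of growing cells, was 1964, 2610.2, 2084, 2055 and 4128 units in normal kidney, 6872, 25912 and 18746 in MYC, 39261, 41813 and 24900.1 in VM and 25510.4, 24803 and 31163 in VIM tumours. Each tumour library lay above each normal kidney, and the changes were 2.33 (SE 0.45, adjusted p = 0.00305), 3.81 (SE 0.27, adjusted p = 3.28e-06) and 3.45 (SE 0.25, adjusted p = 7.09e-06). This row counts the whole M gene and cannot separate its splice forms. Pklr, the liver and red cell form, also rose in VM tumours by 1.78 (SE 0.25), with 1625 to 3484 units against 522 to 903 in normal kidney. MYC tumours (1031 to 1306 units) and VIM tumours (1004 to 1833) also lay above normal kidney in Pklr but did not pass. Eno1 changed by 2.02 (SE 0.20, adjusted p = 2.33e-05) and 1.51 (SE 0.19, adjusted p = 0.000129) in VM and VIM tumours and by 0.26 (SE 0.32, adjusted p = 0.536) in MYC tumours. Eno2, the neuronal enolase and a known HIF target, went from 8.65, 10.2, 4.02, 3.26 and 17.7 units in normal kidney to 132, 386 and 499 in MYC, 1358, 263 and 258 in VM and 439, 312 and 598 in VIM tumours. Its log2 changes of 4.85, 5.74 and 5.69 start from a level at or under the floor in 2 of 5 normal kidneys. Eno3, the muscle enolase, rose by 1.10, 1.13 and 1.96, and the MYC and VM calls were lost without mouse 2917 and without the third VM tumour. Pgam2, the muscle mutase, fell from 1125, 1519.7, 1032, 943 and 1512 units in normal kidney to 1.87, 17 and 5.65, 46.6, 9.28 and 4.93 and 9.42, 58.9 and 5.51 in MYC, VM and VIM tumours. The log2 changes were -7.66, -6.40 and -6.24, while Pgam1 rose by 1.35 and 1.35 in VM and VIM tumours. Skeletal muscle markers (6 genes) summed to at most 22.8 units in normal kidney, and 4 of the 6 were at 0 in all 5 kidneys.

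Pgk1 and Gapdh, which make the first ATP and NADH of the pathway, need a caution on counting, since 91.4% and 85.4% of the 75-base stretches of their longest transcripts occur elsewhere in the mm9 genome (65.4% for Eno1, 88.9% for Pgam1, 22.5% for Pkm2 and 7.15% for Ldha), where reads can be lost or shared. Pgk1 was 1221, 1199, 1230.2, 1007 and 1001 units in normal kidney, 3517, 3566 and 3007 in VM and 3817, 1845 and 5604 in VIM tumours, with changes of 1.57 (SE 0.13, adjusted p = 8.08e-06) and 1.59 (SE 0.30, adjusted p = 0.0016). In MYC tumours the change was -0.16 (SE 0.22, adjusted p = 0.561). Gapdh, with 1420.4 to 2005 units in normal kidney, changed by 0.16, 0.67 and 0.61 in MYC, VM and VIM tumours and passed in none.

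**Figure D3:**
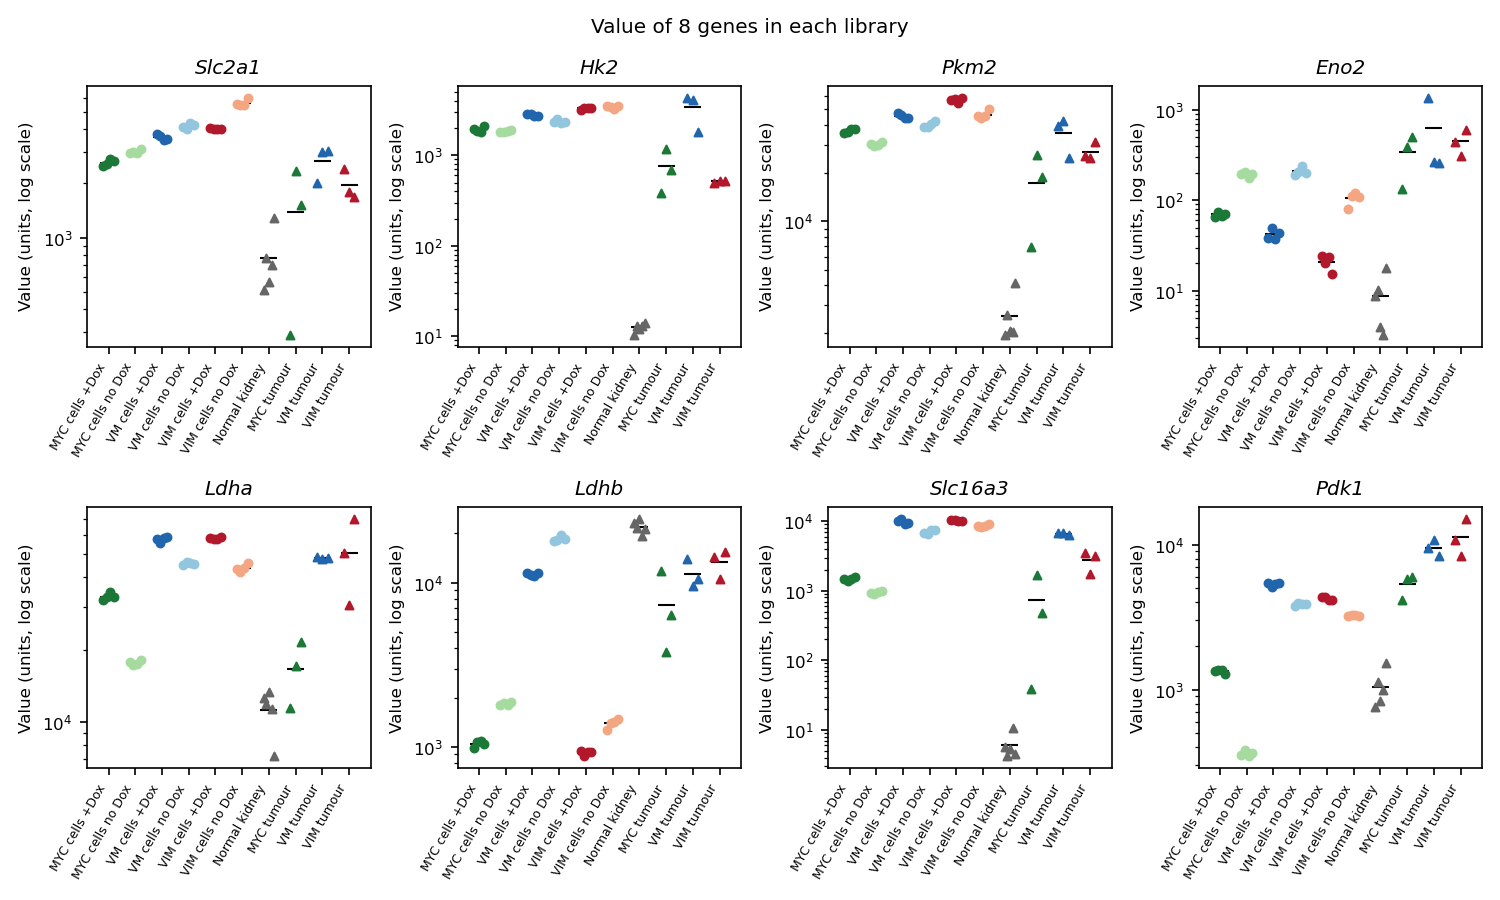
Value of 8 genes in each library on a log scale, circles for cell line libraries, triangles for tissues, and black bars for the mean over libraries of a group. Hk2 and Slc16a3 are lowest in normal kidney, Ldhb separates VM from MYC and VIM cells, Pdk1 is lowest in MYC cells without Dox, and Eno2 is lower with the Dox label in each line.

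At the step to lactate, Ldha rose in VM and VIM tumours and Ldhb fell in MYC tumours. Ldha, whose product favours lactate formation, was 12526, 11834, 13359, 11336 and 7184 units in normal kidney, 48783, 47995 and 48090.0 in VM, 50589.5, 30792 and 69926 in VIM and 11474, 17076 and 21482 in MYC tumours. All VM and VIM tumours exceeded all normal kidneys, while MYC tumours overlapped with them, and the changes were 2.13 (SE 0.23, adjusted p = 3.96e-05), 2.12 (SE 0.31, adjusted p = 0.000346) and 0.43 (SE 0.30, adjusted p = 0.264). Ldhb, the heart form, fell in MYC tumours, by a log2 change of -1.50, with 3781 to 11744 units against 19192 to 24336 in normal kidney, and was 9512 to 13868 in VM and 10510.0 to 15444 in VIM tumours. The Ldhb call in MYC tumours was lost without mouse 2983 (-0.90). Per kb, Ldha held 19.9 to 30.4% of the pair in normal kidney. In MYC, VM and VIM tumours it held 63.4%, 76% and 72.5% on average over libraries, so that mouse 2983 entered with 2 libraries. The ratio of Ldha to Ldhb, not per kb, ran from 0.977 in mouse 2917 to 4.52 in the MYC tumours.

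Slc16a3 (MCT4), the lactate exporter of glycolytic cells, was nearly absent from normal kidney, at 5.76, 4.18, 5.35, 10.7 and 4.45 units where 1 library was at the floor, and reached 6700.1, 6833 and 6297 in VM, 3512, 1729 and 3142 in VIM and 39.3, 1672 and 474 in MYC tumours. The lowest tumour value, 39.3, was that of mouse 2917. The log2 changes were 9.93 (SE 0.32, adjusted p = 2.39e-08), 8.63 (SE 0.39, adjusted p = 1.03e-06) and 4.94 (SE 1.07, adjusted p = 0.00535). Slc16a1 (MCT1), which moves lactate either way, was 519, 745, 459, 1042 and 586 units in normal kidney, 3169.8, 7145 and 3743 in MYC, 6381, 4201 and 4826 in VM and 3038, 3000.0 and 2675 in VIM tumours and rose by 2.69, 2.98 and 2.18. Slc16a7 (MCT2), a carrier of high affinity suited to uptake, fell from 1547, 1876, 1581, 1632 and 2807 units to 38.2, 40.1 and 129, 34.6, 10.3 and 8.63 and 22.6, 155 and 189, in MYC, VM and VIM tumours, with log2 changes of -4.99, -6.87 and -4.37. Per kb it held 64.4 to 84.8% of the 3 carriers in normal kidney, where Slc16a3 held 0.22% on average, and in VM tumours Slc16a3 held 51.6 to 62.4%.

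At the gate to the mitochondria, Pdk1, the kinase that inactivates pyruvate dehydrogenase and a known HIF target, was 763, 1128, 835, 992 and 1531 units in normal kidney, 4166, 5779 and 6006 in MYC, 9437, 10804 and 8348 in VM and 10798, 8395 and 14944 in VIM tumours. No tumour overlapped normal kidney, and it rose by 2.28 (SE 0.27, adjusted p = 0.000284), 3.22 (SE 0.22, adjusted p = 2.37e-06) and 3.44 (SE 0.26, adjusted p = 7.91e-06). Of its relatives, Pdk2 fell from 4462 to 5370.0 units to 673 to 2032, 640.0 to 1170.4 and 1045 to 1278 (log2 changes of -1.87, -2.39 and -2.06). Pdk3 fell with log2 changes of -1.69, -1.41 and -1.37. Pdk4, the kinase induced by fasting, ranged from 209 to 1155 units in normal kidney and passed in no tumour. Of the complex itself, Pdha1, the catalytic subunit that the kinases phosphorylate, fell with log2 changes of -1.35, -1.69 and -1.01 in MYC, VM and VIM tumours, and the VIM call was lost without any of 3 single libraries (-0.98 to -0.99). Dld, the subunit shared with other dehydrogenases, fell in MYC tumours, with a log2 change of -1.16. Pdhb and Dlat passed in no tumour.

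**Figure D4:**
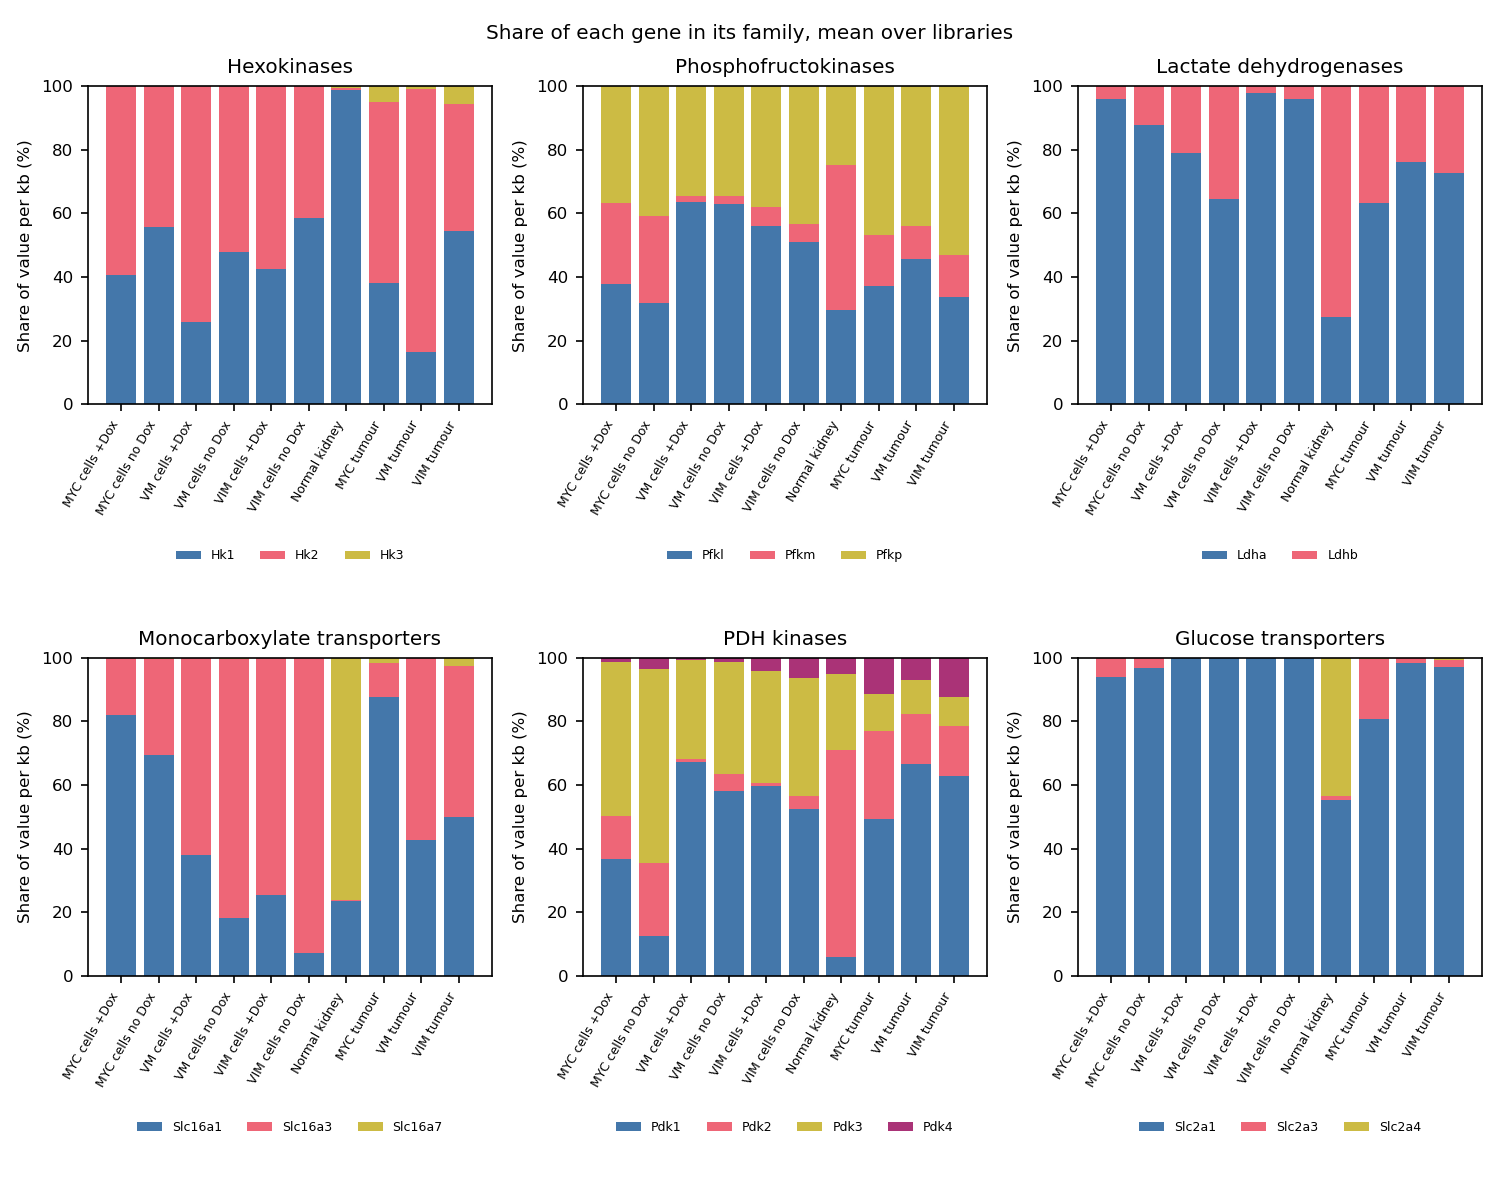
Stacked bars of the share of each gene in its family, in percent of the value per kb of transcript, as the mean over the libraries of each of the 10 groups. Normal kidney is mainly Hk1, Ldhb, Slc16a7 and Pdk2, with a large part of Slc2a4. Tumours and cells hold mainly Hk1 and Hk2, Ldha, Slc16a1 and Slc16a3, and Slc2a1. The glucose transporter bars cover only the members Slc2a1, Slc2a3 and Slc2a4. The carrier Slc2a2, not a member, stood at 3762 to 5158 units in normal kidney. In MYC, VM and VIM tumours it was 98.8 to 5391, 2961 to 5703 and 692 to 1153.

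Between tumour genotypes few differences passed. Between VIM and VM tumours 1 member was called against a background of 0.249% of 16096 genes (0.0746% lower): Hk2 was lower in VIM tumours, with 495 to 525 units against 1821 to 4325. The log2 change was -2.63 (SE 0.34, adjusted p = 0.0308). The call was lost without any one of 5 of the 6 tumours, with changes of -2.64 to -2.41. Slc16a3 was also lower in every VIM tumour than in every VM tumour, with a change of -1.31 (SE 0.30, adjusted p = 0.148) that did not pass. Vhl stood at 219 to 312 units in VIM against 40.2 to 79.9 in VM tumours. Summed leukocyte markers were 7372 to 14083 against 2186 to 7747 units, which overlap. The part of such sample differences in the Hk2 and Slc16a3 values was not tested. The other fixed genes gave -0.44 for Slc2a1, -0.38 for Pfkp, -0.06 for Gapdh, 0.02 for Pgk1, -0.51 for Eno1, -0.35 for Pkm2, -0.02 for Ldha and 0.22 for Pdk1.

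Against MYC tumours, limma called 0 members in VM tumours (background 0.00% of genes) and 0 in VIM tumours (background 0.00616%). At an unadjusted p under 0.05 there were 17 members higher and 1 lower in VM tumours and 10 higher and 1 lower in VIM tumours, where 13.8% and 14.6% of all genes met that level, and limma voom on recovered reads also called 0 in each. With all 4 tissue groups in one fit 8 and 6 members were called, each of them higher. The backgrounds above are those of the fits with only the groups compared. The share of all genes called with all 4 groups is not given here. Of all calls in that fit 70.6% were lower for VM and 52.9% for VIM against MYC tumours. Values for VM against MYC tumours were 1.81 (SE 0.73) for Slc2a1, 2.40 (SE 0.51) for Hk2, 1.08 (SE 0.35) for Pfkp, 1.73 (SE 0.28) for Pgk1, 1.77 (SE 0.39) for Eno1, 1.70 (SE 0.41) for Ldha, 4.99 (SE 1.21) for Slc16a3 and 0.94 (SE 0.27) for Pdk1, with Pkm2 at 1.48 and Gapdh at 0.50. For VIM against MYC tumours they were 1.37, -0.23, 0.71, 1.76, 1.26, 1.68, 3.68 and 1.16 for the same genes in that order, with Pkm2 at 1.12 and Gapdh at 0.45. The MYC group is 2 animals: for 26 of 39 members mouse 2917 lay under both libraries of mouse 2983 and for 9 above both. The mean of mouse 2983 was over 2-fold higher for 14 and over 2-fold lower for 4. The same counts over all genes are not given here. A difference of the members can therefore not be told apart from one of the whole library.

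Among the cell lines with Dox, VM cells had more Ldhb, Slc16a3, Pdk1, Pfkl, Pgk1, Tpi1 and Pfkfb3 than MYC cells and less Slc2a3, Pfkm, Pdk2, Pklr, Eno3 and Aldoc. VIM cells had more Slc16a3, Pdk4, Pgk1, Pdk1 and Pfkl than MYC cells, among others, and less Pklr, Aldoc, Slc2a3, Pdk2, Eno2 and Pfkm. In VM against MYC cells 7 members were higher and 6 lower of 38 tested (34.2% against a background of 24.6% of 14780 genes, 6.54% higher and 18.1% lower), and in VIM against MYC cells 10 were higher and 6 lower of 37 (43.2% against 23.9%, 5.66% higher and 18.3% lower). Members were higher in 18.4% and 27% of tests where 6.54% and 5.66% of all genes were. Of all calls 73.4% and 76.4% were lower, and 47.9% and 51.8% after quantile normalization, under which the members' split became 13 higher and 5 lower in VM and 11 and 4 in VIM cells. Both comparisons share the MYC libraries, whose titles number them in a series of their own, so that genotype, line and any run cannot be told apart. All 6 groups were at or under 81.4 units in mean Epas1, while Hif1a means ran from 1387 to 3884.

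Slc16a3 stood with Dox at 1466, 1396, 1478 and 1571 units in MYC, 10146, 10625, 9241 and 9483 in VM and 10261, 10313, 10076 and 10094 in VIM cells, and the latter were 6.68-fold and 6.89-fold above MYC cells (2.74 and 2.79 on the log2 scale). Without Dox the changes were 2.88 and 3.17. Between VIM and VM cells with Dox it did not pass (0.05 (SE 0.04, adjusted p = 0.302)). Per kb, the share of Slc16a3 among the 3 lactate carriers was 17 to 19% in MYC, 59.7 to 64.3% in VM and 74.3 to 74.7% in VIM cells with Dox.

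Pdk1 was 1348, 1367, 1371 and 1289.8 units in MYC cells with Dox and 356, 386, 347 and 365 without. VM cells had 5447, 5106, 5349 and 5422 with and 3754, 3929, 3864 and 3872 without Dox, and VIM cells 4361, 4333, 4179.8 and 4162 and 3215, 3263, 3264 and 3242. No library of either Vhl-deleted line reached down to any MYC library, and the log2 changes against MYC cells were 1.99 (SE 0.03, adjusted p = 4.86e-15) and 1.66 (SE 0.03, adjusted p = 3.95e-15) with Dox and 3.41 and 3.16 without. Pdk2 was lower in both lines, with log2 changes of -2.65 and -2.72 with Dox, at 28 to 39.9 and 24.3 to 38 units against 177 to 251. Pdk4 was higher in VIM cells, 195 to 222 units against 31.5 to 42.1 in VM and 25.2 to 45.6 in MYC cells, with 2.52 (SE 0.16) against MYC and 2.44 (SE 0.12) against VM cells.

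In upper glycolysis, Pfkl was 7311 to 8028 units in VM and 7705 to 7989 in VIM cells against 2380.4 to 2637 in MYC cells with Dox (1.60 and 1.64), while Pfkm was 161 to 212 and 621 to 686 against 1280.2 to 1345 (-2.86 and -1.01). The Pfkm call in VIM cells was lost under TMM rescaling (-0.87) and without either of 2 libraries, and that of Aldoc in VM cells under TMM rescaling (-0.85) and without any of 3. Per kb, Pfkm held 25.5% of the phosphofructokinases in MYC, 1.94% in VM and 5.98% in VIM cells. Tpi1 was higher by 1.35 and 1.34 and Pfkfb3 by 1.16 and 1.38. Gpi1 (1.07), Pfkp (1.13) and Aldoa (1.12) passed in VIM against MYC cells, whereas Pfkp changed by 0.77 in VM against MYC cells. Hk2 and Slc2a1 changed by 0.52 and 0.47 in VM and 0.77 and 0.63 in VIM cells and did not pass. Slc2a3 was highest in MYC cells, at 254, 259.9, 252 and 248 units, against 26.4, 16.6, 21 and 10.5 in VIM and 2.96, 1.7, 3.4 and 1.75 in VM cells, of which 2 libraries were at or under the floor.

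Of the abundant enzymes of lower glycolysis Pgk1 passed. Pgk1 was 2623 to 3094 and 3301 to 3682 units in VM and VIM cells against 1066 to 1137 in MYC cells with Dox (1.37 (SE 0.05, adjusted p = 2.39e-11) and 1.66 (SE 0.04, adjusted p = 3.36e-14)). Pkm2 changed by 0.31 and 0.64, Gapdh by 0.33 and 0.62 and Eno1 by 0.17 and -0.20, none of which passed. Ldha, at 32210.2 to 34672 units in MYC, 55708 to 59104 in VM and 57736 to 59032 in VIM cells with Dox, changed by 0.79 and 0.81 and did not pass, but without Dox it passed at 1.38 and 1.31. Pklr was low in all cells and lower still in the Vhl-deleted lines, 9.34 to 19.2 and 1.31 to 3.23 units against 62.9 to 68. Eno3 was lower in VM cells (-1.64) and Eno2 in VIM cells (-1.71). The Eno2 call was lost under quantile normalization (-0.86).

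VIM and VM cells, which differ in Cdkn2a and in line, differed from each other in 5 higher and 4 lower members of 37 with Dox (24.3% against a background of 19.1% of 14060 genes, 9.69% higher and 9.45% lower). Ldhb was lower in VIM cells (-3.62): 11541, 11192, 11054 and 11446 units in VM cells against 951, 878, 925 and 934 in VIM and 988, 1066, 1093 and 1047 in MYC cells, so that VM cells stood 12.3-fold above VIM and 10.8-fold above MYC cells. Per kb, Ldhb held 21% of the pair in VM, 2.1% in VIM and 4.09% in MYC cells. Aldoc (brain aldolase) was 19 to 22.9 units in VIM, 209.7 to 232 in VM and 407 to 505 in MYC cells, a change of -3.35 (SE 0.12) for VIM against VM. Eno3 was 552 to 597 against 104 to 132 units (2.27 (SE 0.07)), Pfkm 621 to 686 against 161 to 212 (1.85 (SE 0.07)) and Hk1 1859.5 to 1940.5 against 749.6 to 765 (1.32 (SE 0.03)), all higher in VIM cells. Summed skeletal muscle markers differed in the direction of the muscle genes Eno3 and Pfkm, at 271 to 484 units in VIM and at most 25.5 in VM cells with Dox. In VIM cells with Dox 3 of the 6 were at 0 in every library. The muscle mutase Pgam2 did not go with them, at 1.97 to 6.25 units in VIM and 5.26 to 8.51 in VM cells with Dox. MYC cells with Dox had 1280 to 1345 units of Pfkm at a marker sum of 184 to 215. VIM cells without Dox had 632 to 725 at a sum of 4079 to 4993. The part of such expression in the changes was not tested. Slc2a3 was higher (2.47) and Pklr (-2.17) and Slc16a7 (-1.64) lower in VIM cells, at levels of at most 26.4 units in either line. The remaining fixed genes differed by less than the threshold: 0.16 for Slc2a1, 0.25 for Hk2, 0.37 for Pfkp, 0.29 for Gapdh, 0.29 for Pgk1, -0.36 for Eno1, 0.33 for Pkm2, 0.01 for Ldha and -0.32 for Pdk1.

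Without Dox the 3 contrasts of lines gave 9 higher and 3 lower members in VM against MYC cells (background 24.9%, 8.36% higher and 16.6% lower), 13 and 5 in VIM against MYC (26.2%, 6.88% higher and 19.3% lower) and 4 and 5 in VIM against VM (21.7%, 9.21% higher and 12.5% lower). Slc16a1 was then lower in VIM cells, 669, 707, 688 and 677 units against 1531, 1664, 1559 and 1659.7 in VM and 2232, 2189, 2272 and 2199 in MYC cells, with log2 changes of -1.22 and -1.70. Pgam1 was higher in VIM than in MYC cells (1.25).

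In MYC cells the Dox label moved a smaller share of the members than of all genes. In VM and VIM cells these shares were near each other. Slc16a1 was higher and Eno2 lower in the libraries labelled with Dox in all 3 lines, and Pdk1 was higher in MYC cells. In VM cells Hk1, Aldoc, Pfkfb2, Pgam2, Pklr and Pdk2 were also lower, and in VIM cells Aldoc, Eno3, Pklr, Slc16a7 and Pdk2 were lower and Slc2a3 was higher. In MYC cells 2 members were higher and 1 lower of 38 tested, 7.89% against a background of 19.5% of 15104 genes. In VM cells 1 was higher and 7 were lower of 38 (21.1% against 24.8%), and in VIM cells 2 were higher and 6 lower of 37 (21.6% against 24.3%). The members' shares thus lay under the background in MYC cells and near it in VM and VIM cells. Of all calls 77.0%, 76.2% and 68.4% were lower in MYC, VM and VIM cells, against 67.5%, 59.5% and 56.5% after TMM rescaling and 58%, 51.6% and 50.7% after quantile normalization. Among genes that averaged 50 units or more, rescaling moved the median change from -0.06, -0.17 and -0.09 to 0.08, 0.07 and 0.07, and the members' split to 3 higher and 1 lower in MYC, 1 and 4 in VM and 2 and 6 in VIM cells (3 and 1, 1 and 5, and 2 and 6 after quantile normalization).

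**Figure D5:**
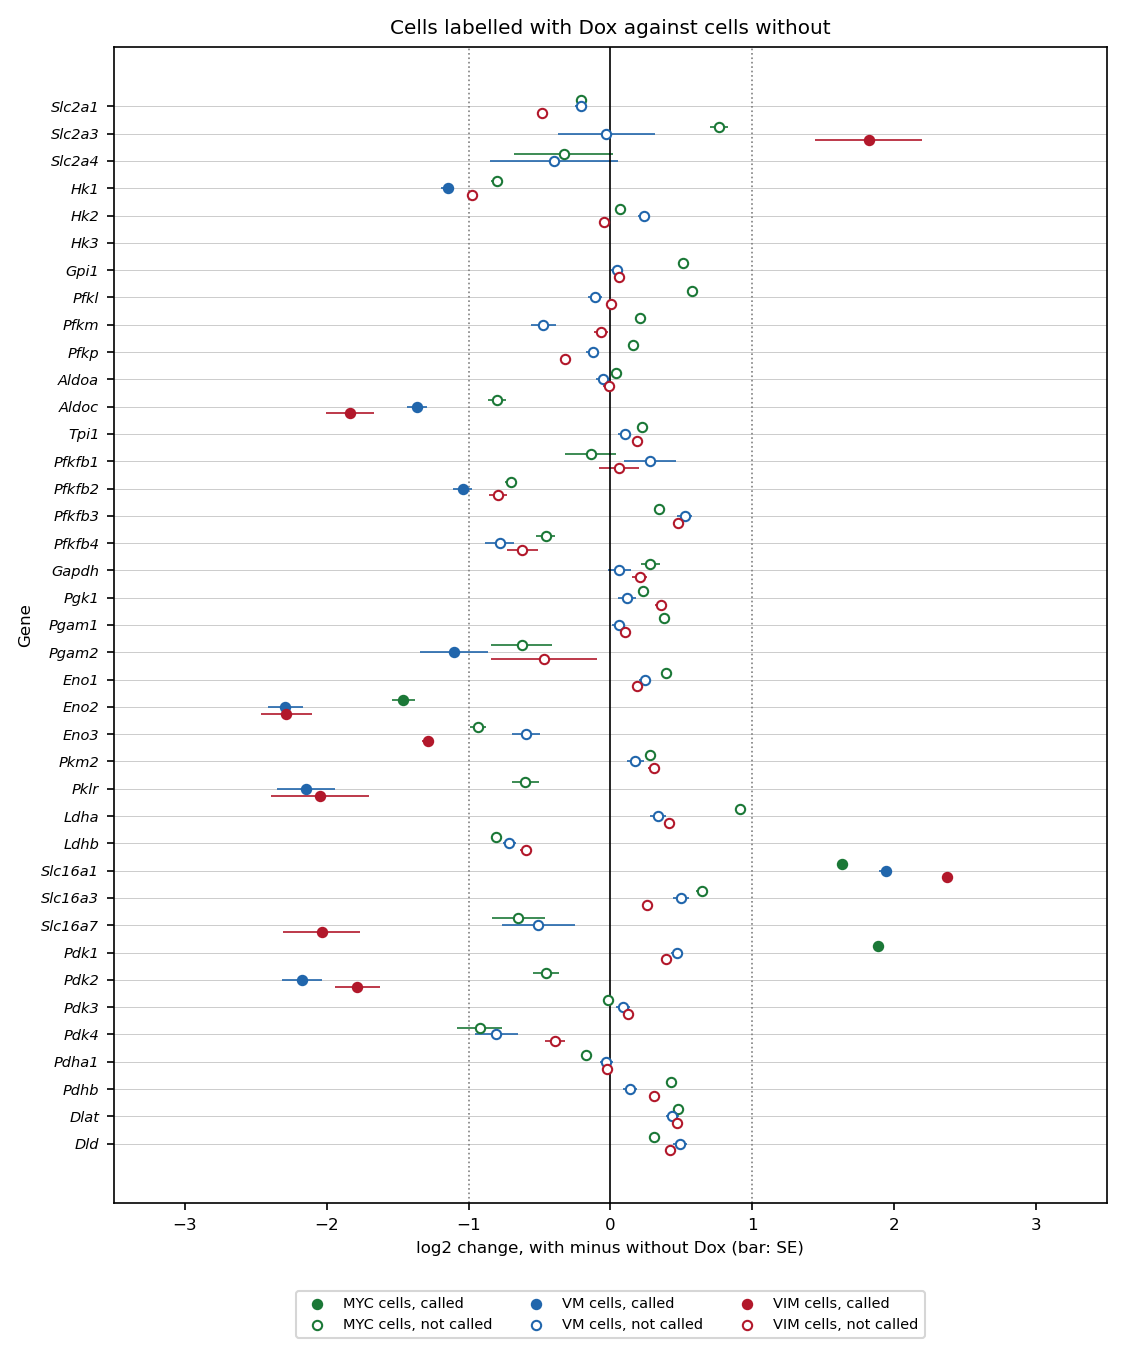
Log2 change of each gene (rows) with against without Dox in MYC, VM and VIM cells, with SE as bars, filled points for genes that passed, open points for the others and dotted lines at -1 and 1. Slc16a1 lies to the right and Eno2 to the left in each line, Pdk1 is filled only in MYC cells, and the abundant enzymes of glycolysis lie close to 0. Hk3 has no point.

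Slc16a1, an exporter and importer of lactate and a known MYC target, went from 2232, 2189, 2272 and 2199 units without Dox to 7019, 6961, 6785 and 6842 with it in MYC cells. In VM cells it went from 1531, 1664, 1559 and 1659.7 to 6098, 5981, 6334 and 6181, and in VIM cells from 669, 707, 688 and 677 to 3545, 3615, 3545 and 3479. The groups did not overlap in any line, and the rise was 3.1-fold, 3.83-fold and 5.18-fold (log2 changes of 1.63 (SE 0.02, adjusted p = 5.3e-19), 1.94 (SE 0.04, adjusted p = 2.49e-16) and 2.37 (SE 0.03, adjusted p = 1.68e-22)). Its promoter above holds an E-box, as does that of Ldha, which passed in no line. The part of these letters in the changes was not tested. Slc16a3 changed by 0.64, 0.50 and 0.26 and Ldha by 0.92, 0.33 and 0.41 in MYC, VM and VIM cells, without passing. In MYC cells Ldha stood without overlap at 17762, 17236, 17406 and 18191 units without and 32210.2, 33126, 34672 and 33216 with Dox. Ldhb changed less than the threshold in each line, with 1791 to 1874 units without and 988 to 1093 with Dox in MYC, 17929.5 to 19459 and 11054 to 11541 in VM and 1273 to 1483 and 878 to 951 in VIM cells. The share per kb of Ldha in the pair was 87.7% without and 95.9% with Dox in MYC and 64.6% and 79% in VM cells.

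Pdk1 rose 3.7-fold with the Dox label in MYC cells (1.89 (SE 0.04, adjusted p = 9.99e-18)) but changed by 0.47 and 0.39 in VM and VIM cells. The difference itself passed: the change in VM cells minus that in MYC cells was -1.42 (SE 0.05, adjusted p = 4.76e-14) and the change in VIM cells minus that in MYC cells -1.49 (SE 0.04, adjusted p = 4.27e-16). Pdk2 fell in VM (-2.17) and VIM cells (-1.79), from 142 to 167 and 92.5 to 127 units to 28 to 39.9 and 24.3 to 38, and was 258 to 316 and 177 to 251 in MYC cells, a difference of lines of -1.72 and -1.33.

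Eno2 fell with the Dox label from 194, 207, 178 and 196 to 66, 74, 67.7 and 71.3 units in MYC, from 192, 206, 239 and 199.8 to 38.4, 49.4, 37.4 and 43 in VM and from 79.7, 110.4, 121 and 109 to 24.3, 20.1, 23.6 and 15.3 in VIM cells. The log2 changes were -1.46 (SE 0.08), -2.29 (SE 0.12) and -2.28 (SE 0.18). Aldoc fell in VM (-1.37) and VIM cells (-1.84), and Pklr likewise (-2.15 and -2.05), in VIM cells from 18, 7.8, 8.16 and 16.6 to 2.08, 2.08, 1.31 and 3.23 units, where 2 libraries were at or under the floor. In VM cells Hk1 (-1.15), Pfkfb2 (-1.04) and Pgam2 (-1.10) fell, and all 3 calls were lost under TMM rescaling (-0.91, -0.81 and -0.89). In VIM cells Eno3 fell (-1.29), with 1493, 1346, 1357 and 1409 units without and 553, 593, 597 and 552 with Dox, and summed skeletal muscle markers moved with it from 4079 to 4993 units without to 271 to 484 with Dox, while 4 of the 6 were at 0 in every library without Dox. The part of such expression in the Eno3 change was not tested. Slc16a7 fell in VIM cells (-2.04) and Slc2a3 rose by 1.82, from 6.64, 1.11, 6.12 and 5.81 to 26.4, 16.6, 21 and 10.5 units.

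The fixed genes of the main route stayed under the threshold in each line. In MYC, VM and VIM cells Slc2a1 changed by -0.21, -0.21 and -0.48, Hk2 by 0.07, 0.24 and -0.04, and Pfkp by 0.16, -0.13 and -0.32. Gapdh changed by 0.28, 0.06 and 0.21, Pgk1 by 0.23, 0.12 and 0.35, Eno1 by 0.39, 0.25 and 0.19, and Pkm2 by 0.28, 0.18 and 0.30. The Slc2a1 value in VM cells became 0.03 after TMM rescaling. Between lines the change with Dox differed for 3 members in VM against MYC cells, all lower (background 8.78% of 15813 genes, 3.26% higher and 5.53% lower), for 1 higher and 5 lower in VIM against MYC cells (9.06%, 4.54% higher and 4.52% lower) and for 1 higher and 1 lower in VIM against VM cells (6.05%, 3.70% higher and 2.35% lower). Of all calls 62.9% were lower for VM against MYC and 38.8% for VIM against VM cells, and 52.4% and 51.2% after quantile normalization. Besides the kinases these were Pklr (-1.55 and -1.45 against MYC cells), Aldoc (-1.04 for VIM against MYC), Slc16a7 (-1.39 for VIM against MYC and -1.53 against VM) and Slc2a3 (1.06 and 1.85). The first Slc2a3 difference, with an adjusted p of 0.0447, was lost without any one of 12 of the 16 libraries, and was 0.62 without 1 VIM library without Dox.

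Other genes of glucose metabolism were read from 3 lists. Of all genes tested, 37.1%, 39.8% and 39.6% were called in MYC, VM and VIM tumours (17.7%, 22.5% and 20.7% lower). With the Dox label 19.5%, 24.8% and 24.3% were called in MYC, VM and VIM cells. Of 12 genes for gluconeogenesis and renal glucose handling, 9 fell in each of the 3 tumours against normal kidney and 1 rose in MYC, 1 in VM and 2 in VIM tumours. Fbp1, the gluconeogenic fructose bisphosphatase, changed by -9.18 on the log2 scale in MYC tumours, from 27821 to 46.8 units. In VM tumours the deepest fall was that of G6pc, glucose-6-phosphatase, with -10.68 (11659 to 6.79 units), and in VIM tumours that of the lactate carrier Slc5a12, with -7.04. Pck2, the mitochondrial form of the gluconeogenic carboxykinase, rose most in MYC (2.04) and VM tumours (1.65) and Fbp2 in VIM tumours (1.65). Of 24 other glycolytic enzymes and carriers tested in tumours, 3 rose and 11 fell in MYC, 4 and 10 in VM and 6 and 9 in VIM tumours, with the largest falls for the fructose carrier Slc2a5 (-5.85, -7.00 and -7.66 on the log2 scale). These falls went with the proximal tubule markers given above, among which Slc5a12 itself is counted. The part of the proximal tubule in these falls was not tested. With the Dox label, the carrier Slc16a6 gave the largest rise of this list in each line (1.23, 3.62 and 3.21 in MYC, VM and VIM cells). Of 8 pentose phosphate genes, 1 rose in VM and 1 in VIM cells with Dox, in each case Rpia (1.35 and 1.69), and H6pd fell in MYC and VM cells (-1.03 and -1.15). In tumours 1 rose and 2 fell in MYC, 1 fell in VM and 3 rose in VIM, led by Tkt (1.21) and H6pd (-1.49) in MYC, Taldo1 (-1.43) in VM and Pgls (1.20) in VIM tumours. Beside the shares of all genes, these counts of 8 genes are too small to be read as a result about that pathway.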

How the data were processed

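RNA was read as stranded, paired-end libraries in 24 cell line, 9 tumour and 5 normal kidney samples. The authors aligned reads to mm9 with MapSplice, removed poor alignments with UBU, estimated gene abundance with RSEM on UCSC knownGene models and deposited 1 table of signal values scaled to an upper quartile of 1000. These are not raw counts, so groups were compared with limma 3.58.1 (R 4.3.3; trended empirical Bayes, two-sided, Benjamini-Hochberg over all genes tested) on log2(value + 1), a scale that understates changes of low genes. Genes above 0 in at least 4 cell libraries or 2 tissue units entered, with the libraries of 1 mouse averaged. A call needed an adjusted p under 0.05 and an absolute log2 change over 1. Only the groups compared entered each fit, and differences of the Dox effect were interaction terms.

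Depth was estimated from the steps between low values (94.1 to 95.9% whole within 0.02), giving 12.4 to 36.6 M reads in cells and 8.22 to 15.5 M in tissues. The floor is 3 reads, 1.16 to 5.65 units, and covers counting error only. Values per kb were divided by the longest annotated coding transcript of each gene, so that shares per kb depend on that choice. For Slc16a3 it has 4335 bases, while its 6 coding transcripts have a median of 1623.5. Log2 changes are printed for members called in a comparison and, always, for Slc2a1, Hk2, Pfkp, Gapdh, Pgk1, Eno1, Pkm2, Ldha, Slc16a3 and Pdk1, and for other lists for the largest called change in each direction. Alternatives were the pseudocount, the filter on low values, TMM rescaling (computed from the values directly), quantile normalization, all groups in one fit, the replicate block, leaving out each library and limma voom on recovered reads, the last chosen after seeing the data. The fit was tested on simulated data. The members and lists were chosen with earlier results of these data known. Promoters come from RefSeq on GRCm38.p6, and mm9 was used for no printed coordinate.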

Additional observations from a re-analysis of the deposited data

Results flagged for a closer look

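Differences of the Dox effect between lines passed the interaction test for several members. For VIM minus VM cells the values on the log2 scale were 1.85 for Slc2a3 and -1.53 for Slc16a7. For VM minus MYC cells they were -1.55 for Pklr, -1.42 for Pdk1 and -1.72 for Pdk2. For VIM minus MYC cells they were 1.06 for Slc2a3, -1.04 for Aldoc, -1.45 for Pklr, -1.39 for Slc16a7, -1.49 for Pdk1 and -1.33 for Pdk2. The Slc2a3 and Slc16a7 values in VM and VIM cells rest on low levels, up to 30 units.

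Single libraries stood apart from the rest of their group by Dixon's test in 12 of 262 tests, where chance gives about 1 in 20. These libraries had 1.11 units of Slc2a3, 3867 of Hk1 in VIM cells without Dox and 3176 of Hk2, 330.0 of Pfkfb2 and 8622 of Eno1 in VIM cells with Dox. In MYC cells they had 1918 units of Hk1 and 11.8 of Pgam2 without Dox and 45.1 of Pfkfb1 and 679 of Pfkfb3 with Dox. In normal kidney they had 207 units of Aldoc, 10.7 of Slc16a3 and 2807 of Slc16a7.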

How the results depend on the processing

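Of 4687 values of single members under an alternative, 4531 kept their side of the threshold, 136 lost the call and 19 gained one. Of the 4531, 35 were values that did not pass and took the opposite sign. Another 1 passed with the opposite sign: Slc2a1 in MYC tumours against normal kidney, 0.04, became -1.33 without mouse 2983. The number of members called in VM cells with against without Dox was 8, and 5 after TMM rescaling. For the difference of the Dox effect between VIM and VM cells it was 2, then 0 with a pseudocount of 10 and 1 with a mean of at least 10 units required, and between VIM and MYC cells 6, then 2 with a pseudocount of 10. The 1 call between VIM and VM tumours became 0 without a filter on low values and 0 with limma voom, and ranged from 0 to 1 when single tumours were left out. Against MYC tumours the 0 calls became 8 in VM and 6 in VIM tumours with all 4 tissue groups in one fit, and ranged from 0 to 1 in each when single animals were left out, the 1 call being without mouse 2983, which leaves 1 MYC animal that is assumed to vary like the others. The cause was not tested. Replicate numbers did not pair the cell libraries: deviations of same-numbered libraries correlated on average at -0.184 in VM and 0.0154 in VIM cells, and at 0.058 between VIM and VM cells with Dox. Under the replicate block 8, 8 and 9 members were called in these comparisons and 2 for the difference of the Dox effect, the same as without it. The MYC cell titles give the mouse number 2983 and no replicate number that the Dox groups share, and the tissues carry none, so no block was fitted there. Depth limits Slc2a4 in cells, which was at or near the floor of 3 reads, while Hk3 was listed at 0 in all 24 cell line libraries.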
